A study of Mus musculus with 6 samples.

Results

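The genes described here are 7 members of the S100a family of calcium-binding proteins, S100a1, S100a4, S100a6, S100a8, S100a10, S100a11 and S100a13, among 17872 genes in a read count table of BV2 cells. They were selected on their read counts in this comparison, as genes that were all lower in the libraries labelled TfamKO than in the controls, so their difference between those groups is given as a description, without a test. All 7 were among the 13403 genes that passed a filter on low counts. BV2 is an immortalised mouse microglial line. The table held 2 groups of 3 libraries of poly(A) RNA: BV2 cells of wild-type genotype (control) and BV2 cells of Tfam knockout genotype made with CRISPR-Cas9 (TfamKO), both with no treatment under the labels' treatment tag. The protocol attached to every sample has the cells kept in puromycin at 2 µg/mL after editing, and it is not clear from the labels whether the wild-type cells received it. Whether the edited line came from a single clone, and whether replicates were separate cultures, is not in the labels, so p-values measure only the spread between these libraries, which may be technical.

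S100 proteins are small proteins with a pair of EF-hand loops that bind calcium. Most work as dimers inside the cell, where calcium exposes a surface that grips a target protein such as an annexin, a myosin heavy chain or an enzyme, and some are released and act on receptors of immune cells. In microglia and other myeloid cells they are known for links to cell shape, movement and inflammation. Their genes lie mostly in a cluster on mouse chromosome 3, and most have short transcripts of few exons.

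Library totals ran from 13850691 to 28418133 counts. Tfam mRNA, the targeted transcript, was not lower in the libraries labelled TfamKO (controls 1 to 3 had 1098, 591 and 524 counts, TfamKO 1 to 3 had 868, 743 and 619; 38.2 ± 1.0 and 42.3 ± 1.2 CPM, SD, n = 3 each; log2 fold change 0.14, adjusted p = 0.193, edgeR), so this transcript level does not check the genotype labels. CPM here are TMM-scaled counts per 1000000 counts. Of the tested genes, 44.2% passed edgeR's quasi-likelihood test at an adjusted p below 0.05, 22.9% lower and 21.3% higher in the libraries labelled TfamKO. With scaling by library totals alone, 61.8% of the genes that passed were higher, against 48.2% with TMM, and the median log2 fold change of all genes moved from 0.00 to 0.10. In 26.6% of tested genes every library labelled TfamKO lay below every control. Genes that define microglia and macrophages were present: of 18 listed markers 15 were in the table and 13 were tested, led by Cd68, the lysosomal glycoprotein, and the summed level of those 15 was 4142 to 4567 CPM in controls and 3080 to 3484 CPM in the libraries labelled TfamKO. Of the 13 tested, 9 were lower, among them Csf1r, the receptor for the growth factor CSF1 (-1.46 on the log2 scale), Mertk (-0.93), Tyrobp (-0.83) and Cd68 (-0.33, adjusted p = 0.0523 without control 2, edgeR). The 2 that were higher were Adgre1, which encodes the macrophage antigen F4/80 (0.61), and Fcgr1, an antibody receptor (0.49). Cx3cr1 was lower at few counts (-1.15) and passed the test in 9 of 13 other fits. Tmem119 had 11, 8 and 9 counts in controls and 8, 0 and 0 in TfamKO 1 to 3. Sall1 had 2, 1 and 0 against 7, 0 and 2, and both were too rare for the filter. Itgam, P2ry12 and Siglech were not analysed here. The labels name BV2 cells alone, and bulk samples do not tell a change in all cells from a change in some of them.

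RefSeq's promoter table (GRCm38.p6; 250 bases before to 50 after each start) matched 6 of the 7 genes; S100a10 is the other. S100a1 and S100a13 run in opposite directions from neighbouring starts, so that 204 of the 300 bases of their windows are the same DNA. The S100a1 window, chr3:90514281-90514580 on the minus strand, is shown because that pair shares it, with the shared bases in capitals.

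S100a1: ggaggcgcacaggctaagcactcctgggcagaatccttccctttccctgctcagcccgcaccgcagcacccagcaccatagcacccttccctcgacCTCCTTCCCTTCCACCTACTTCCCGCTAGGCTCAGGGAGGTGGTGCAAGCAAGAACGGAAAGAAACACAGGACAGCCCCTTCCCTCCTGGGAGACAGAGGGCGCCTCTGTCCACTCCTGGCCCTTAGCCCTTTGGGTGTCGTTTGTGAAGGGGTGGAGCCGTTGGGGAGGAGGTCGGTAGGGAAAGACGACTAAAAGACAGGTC

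The next sequences run from 150 bases before to 20 after the start on the plus strand, and show where the motifs searched fell in the other starts. Capitals mark any of the motifs searched, on either strand. These were TATAAA, the letters known as the TATA box, GGGCGG for Sp1 and its relatives, TGACTCA for AP-1, ACGTG for the core of hypoxia response elements, GAGGAA for the core of PU.1 sites and GGGNNTTTCC for NF-kB. A motif that crosses the edge of a stretch appears in part. The stretches are chr3:90603620-90603789 for S100a4, chr3:90668921-90669090 for S100a8, chr3:90612744-90612913 for S100a6 and chr3:93520346-93520515 for S100a11.
S100a4: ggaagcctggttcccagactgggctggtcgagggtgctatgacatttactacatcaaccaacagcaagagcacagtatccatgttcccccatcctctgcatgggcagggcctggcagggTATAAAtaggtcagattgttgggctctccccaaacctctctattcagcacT
S100a8: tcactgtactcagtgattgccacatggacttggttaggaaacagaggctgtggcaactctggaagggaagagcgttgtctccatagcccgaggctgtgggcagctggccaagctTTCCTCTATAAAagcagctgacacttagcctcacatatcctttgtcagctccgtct
S100a6: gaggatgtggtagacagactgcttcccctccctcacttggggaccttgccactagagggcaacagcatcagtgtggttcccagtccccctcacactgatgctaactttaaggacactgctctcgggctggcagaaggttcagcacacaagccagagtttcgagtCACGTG
S100a11: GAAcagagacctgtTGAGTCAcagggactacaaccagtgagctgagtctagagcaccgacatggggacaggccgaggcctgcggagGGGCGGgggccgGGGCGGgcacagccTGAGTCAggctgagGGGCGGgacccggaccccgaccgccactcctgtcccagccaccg

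TATAAA was found in the windows of S100a4 and S100a8, beginning 31 and 30 bases before the start, and in 13.6% of all 32851 promoters of the table. It began 35 to 25 bases before the start in 1.75% of them. S100a4 and S100a8 were also the least abundant of the genes in these cells. GGGCGG was found in the S100a11 window alone among the 6, in 3 copies, and in 35.7% of all promoters. TGACTCA was found in the S100a11 window alone as well, in 2 copies, and in 5.2% of all promoters. ACGTG lay in the windows of S100a6 and S100a11, each time as overlapping matches on both strands, and in 19.6% of promoters. GAGGAA lay in those of S100a4, S100a8 and S100a11, and in 28.3%. GGGNNTTTCC lay in none of the 6 and in 1.63% of all. None of the 6 motifs was found in the S100a1 or S100a13 window. A match is a run of letters, and binding was not measured.

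**Figure D1:**
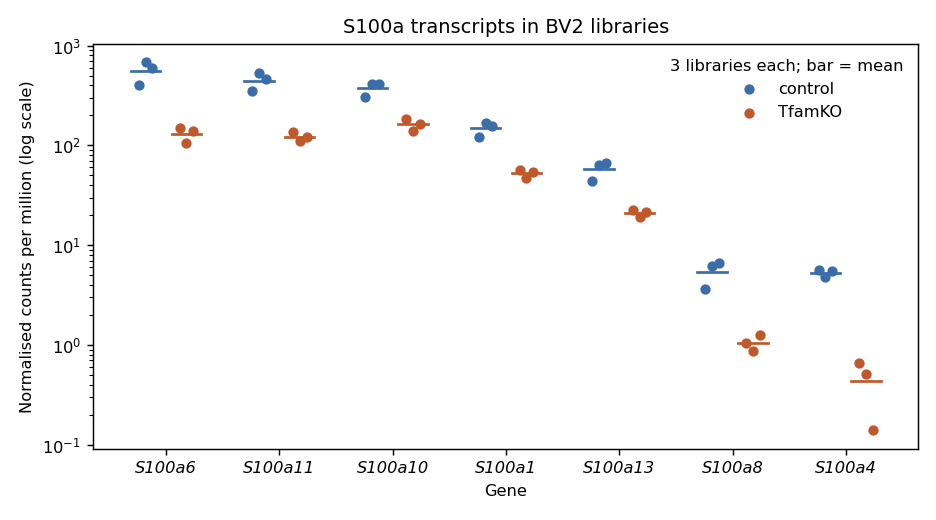
Normalised counts per 1000000 counts (CPM, log axis) of the 7 S100a genes, ordered by their level in controls; each point is 1 of 3 libraries of a group and each bar is the group mean. Every library labelled TfamKO lies below every control for each gene, from S100a6 at the left to S100a4, which is at 0.140 to 0.661 CPM in the libraries labelled TfamKO. The same held for 26.6% of all tested genes, and the S100a genes were picked as lower.

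All 7 genes passed the test as lower, which is how they were picked, beside 22.9% of tested genes; nothing is read from that count. Summed over the 7 genes, 1219, 1747 and 1640 counts per 1000000 of the library total came from them in controls 1 to 3, and 559, 445 and 517 in TfamKO 1 to 3. The log2 fold changes ran from -1.20 for S100a10 to -3.48 for S100a4, with a median of -1.87. S100a6, S100a10, S100a11 and S100a1 held between 95.1% and 96.0% of the summed counts in every library, so the sum speaks for them and hardly for the other genes.

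The partners of annexins come first. S100a10 is an S100 protein whose loops have lost calcium binding and which joins Anxa2 in a complex at the cell membrane. It had 302.8, 409.6 and 407.5 CPM in controls 1 to 3 and 184, 139.9 and 163 CPM in TfamKO 1 to 3. Its change was the smallest of the 7, from 373 ± 61 to 162.5 ± 22.2 CPM (SD, n = 3 each; log2 fold change -1.20 ± 0.11, SE), with control 1 the lowest control and a gap to the highest library labelled TfamKO. S100a11, which binds Anxa1, had 350.2, 529 and 458.5 CPM in controls and 136, 109 and 120.3 CPM in the libraries labelled TfamKO. It stood at 446 ± 90 and 122 ± 13 CPM (3.66-fold lower, log2 fold change -1.87 ± 0.12), and control 2 was its highest library. A processed copy of S100a11, Gm7665, with 98.7% identity over 297 bases, was in the table too. It had 231, 187 and 173 counts in controls against 70, 41 and 53. How reads that fit both were assigned is not stated by the sources, and the level of S100a11 carries that uncertainty.

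S100a6, also called calcyclin, binds Cacybp, a protein of a ubiquitin ligase complex. It was the most abundant of the 7 in controls, at 405.3, 678 and 599 CPM, and had 149.6, 105.5 and 138 CPM in TfamKO 1 to 3. Its groups lay furthest apart among the 4 abundant genes, 561 ± 140 against 131 ± 23 CPM (4.28-fold lower, log2 fold change -2.10 ± 0.15), though its controls spread by more than those of the others. Its share of the members' summed counts was 34.9% ± 1.8 in controls and 26.6% ± 1.4 in the libraries labelled TfamKO, and these shares did not overlap (32.9% to 36.5% against 25% to 27.6%).

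S100a4, known for binding the heavy chain of nonmuscle myosin and for its part in cell movement, was rare in these cells. It had 157, 73 and 77 counts in controls (5.58, 4.76 and 5.45 CPM) and 14, 9 and 2 counts in the libraries labelled TfamKO (0.661, 0.517 and 0.140 CPM). That is 8.35% of the control mean, the largest difference of the 7, and its log2 fold change ranked 25 from the lowest among 13403 genes. The value of S100a4 rests on 25 counts in the libraries labelled TfamKO, and it reached the filter's minimum of 0.609 CPM in the 3 controls and in 1 library labelled TfamKO, so its place among the tested genes came from the group where it was high. In the annotation 302 of the 584 exonic bases of S100a4 also belong to Gm42674 on the same strand, which is not analysed here. How reads in the shared stretch were assigned is not stated by the sources, and the level of S100a4 carries that uncertainty. S100a8, a partner in the secreted pair calprotectin that activates myeloid receptors, had 102, 94 and 93 counts in controls (3.63, 6.13 and 6.58 CPM) and 22, 15 and 18 counts in the libraries labelled TfamKO (1.04, 0.862 and 1.26 CPM). It was 5.18-fold lower (log2 fold change -2.35 ± 0.31), and the lowest control was still above the highest library labelled TfamKO. Its partner S100a9 was not analysed here.

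S100a8 is best known from neutrophils. Of 20 listed neutrophil markers 11 were in the table and 6 were tested. The summed level of the 11 was 54.8 to 56.6 CPM in controls and 173 to 224 CPM in the libraries labelled TfamKO. Most of the latter came from Lcn2 alone, at 189, 133 and 169 CPM in TfamKO 1 to 3, so the sum hardly speaks for the other markers. Of the 6 tested, Mmp8 (log2 fold change -2.15) and Prtn3 (-2.48), both granule proteases, were lower (33.3%, beside 22.9% of all tested genes). Lcn2, the iron-carrier binding lipocalin, was higher (3.32 ± 1.45 and 164 ± 28 CPM, 49.3-fold), which is 16.7% of them, beside 21.3%. Cebpe (-0.02), Mmp9 (-0.03) and Csf3r (0.26) did not pass the test. Prtn3 had 25, 21 and 20 counts in controls and 4, 3 and 4 in TfamKO 1 to 3, below the filter's minimum of 0.609 CPM. Its place among the tested genes thus came from the controls. Ngp and Camp, granule proteins that define neutrophils, had at most 11 counts in any library. The part of such markers in the S100a8 result was not tested.

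S100a1, known from muscle as a partner of calcium channels and pumps, had 120.5, 169 and 156 CPM in controls and 57.1, 46.8 and 54.7 CPM in the libraries labelled TfamKO (2.81-fold lower, log2 fold change -1.49 ± 0.11). S100a13, known for the unconventional export of growth factors and cytokines that lack a signal peptide, had 44.1, 63.0 and 66.1 CPM and 22.3, 19.1 and 21.5 CPM (2.75-fold lower, log2 fold change -1.45 ± 0.13). This pair shares a start region, as printed above, and their ratio per transcript length stayed between 2.69 and 3.12 in the 3 controls and between 2.79 and 2.92 in the 3 libraries labelled TfamKO. The ranges of that ratio overlap. RefSeq's gene spans of the pair overlap by 98 bases, while their exons in GENCODE share 0. The kit does not mark strand, so reads from a shared exonic stretch, where there is one, could not be told apart.

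Levels of different genes are compared per kilobase of transcript, with the median length of a gene's annotated transcripts. The order of genes with close levels depends on that choice of length. The longest coding transcripts have 731 nucleotides for S100a6, 511 for S100a11, 685 for S100a10, 498 for S100a4 and 486 for S100a8. In controls the order was S100a6 (939 ± 235 CPM per kilobase), S100a11 (873 ± 177), S100a10 (611.0 ± 99.95), S100a1 (237 ± 40), S100a13 (80.8 ± 16.7), S100a4 (12.6 ± 1.1) and S100a8 (11.1 ± 3.2). S100a6 and S100a11 overlapped over the 3 libraries, as did S100a4 and S100a8, and no other neighbours in that order did. In the libraries labelled TfamKO S100a10 came first (266 ± 36 CPM per kilobase), then S100a11 (239 ± 26) and S100a6 (219 ± 38), each overlapping the next, with S100a1 at 84.3 ± 8.6, S100a13 at 29.3 ± 2.3, S100a8 at 2.14 ± 0.40 and S100a4 at 1.05 ± 0.65. The ratio of S100a6 to S100a10 per length was 1.37, 1.69 and 1.503 in controls and 0.830, 0.771 and 0.862 in the libraries labelled TfamKO, so S100a6 was above S100a10 in every control and below it in every library labelled TfamKO.

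All 7 genes have short transcripts, so other short genes were set beside them. By the longest coding transcript, a length measure taken up after the data were seen, the 7 genes span 486 to 731 nucleotides, and 169 other tested genes lie in that range. Of these, 90 were lower (53.3%) and 6 higher (3.55%), and the median log2 fold change was -0.39; over all tested genes these values were 22.9%, 21.3% and 0.00. The median rose with length: it was -0.73 in 62 genes of at most 500 nucleotides, -0.37 between 500 and 750, -0.22 between 750 and 1000, -0.08 between 1000 and 1500, -0.03 between 1500 and 2500, 0.02 between 2500 and 4000 and 0.06 in 4020 genes above 4000. By the median length over all of a gene's transcripts, which mixes in fragments of long genes, 2250 genes lay between 417 and 715 nucleotides, and 572 of them were lower and 414 higher, with a median of -0.05.

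Each of the 7 genes lay below the median of the 169 short genes. The distance was 3.10 on the log2 scale for S100a4, 1.96 for S100a8, 1.71 for S100a6, 1.48 for S100a11, 1.10 for S100a1, 1.06 for S100a13 and 0.81 for S100a10. No short gene had as low a value as S100a4, 4 of 169 were at or below S100a8, 5 at or below S100a6, 9 at or below S100a11, 14 at or below S100a1 and S100a13, and 19 (11.2%) at or below S100a10. The 7 genes were picked as lower and the short genes were not, so these places are a description and test nothing. S100a4 also came among the tested genes through the controls, as stated above. The lowest of the short genes were 2010005H15Rik (-2.84), the histone genes Hist1h2bb (-2.43) and Hist1h4a (-2.43), mt-Atp6 (-2.41) and Fam162a (-2.22). Hist1h2bb had 11, 13 and 5 counts and Hist1h4a 7, 9 and 7 in TfamKO 1 to 3, so both came among the tested genes through the controls. The mitochondrially encoded mt-Atp6, a subunit of ATP synthase, had 79.1, 189.7 and 75.15 CPM in controls 1 to 3. With offsets for the longest coding length and GC content in the fit, also added after the data were seen, the log2 fold changes of the 7 genes ran from -0.995 for S100a10 to -3.22 for S100a4 and the median of the short genes was -0.13.

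**Figure D2:**
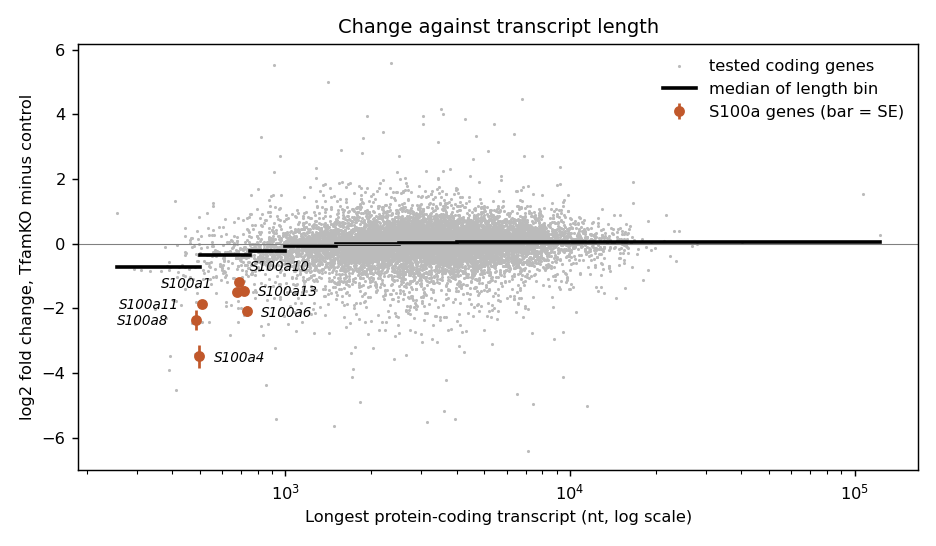
Log2 fold change (TfamKO minus control) of tested coding genes against the length of the longest coding transcript (log axis); grey points are genes, black bars the medians of length bins, and orange points the 7 S100a genes with the standard error. The bin medians go from -0.73 in the shortest bin to 0.06 in the longest, and all 7 S100a genes lie below the medians of their bins. The S100a genes were picked for their direction.

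Libraries of the same group also differed in the short genes, and the S100a genes moved with them. As deviations from the group mean on the log2 CPM scale, the median of the 7 genes was -0.33, 0.20 and 0.13 in controls 1 to 3 and 0.16, -0.17 and 0.04 in TfamKO 1 to 3. The median of the 169 short coding genes was -0.24, 0.19 and 0.10 in the controls and 0.13, -0.17 and 0.05 in the libraries labelled TfamKO, while that of all tested genes was within 0.01 of 0 in each. Control 1, the deepest library, was thus the lowest control for 6 of the 7 genes and TfamKO 2 the lowest of its group for 6. S100a4, the rarest of them in the libraries labelled TfamKO, went its own way, with 0.09, -0.14 and 0.05 in controls and 0.64, 0.35 and -0.99 in the libraries labelled TfamKO. Without control 1 the log2 fold changes lay between -1.32 for S100a10 and -3.43 for S100a4, and without TfamKO 2 between -1.10 and -3.56. The part of transcript length or RNA quality in the difference between the groups was not tested.

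**Figure D3:**
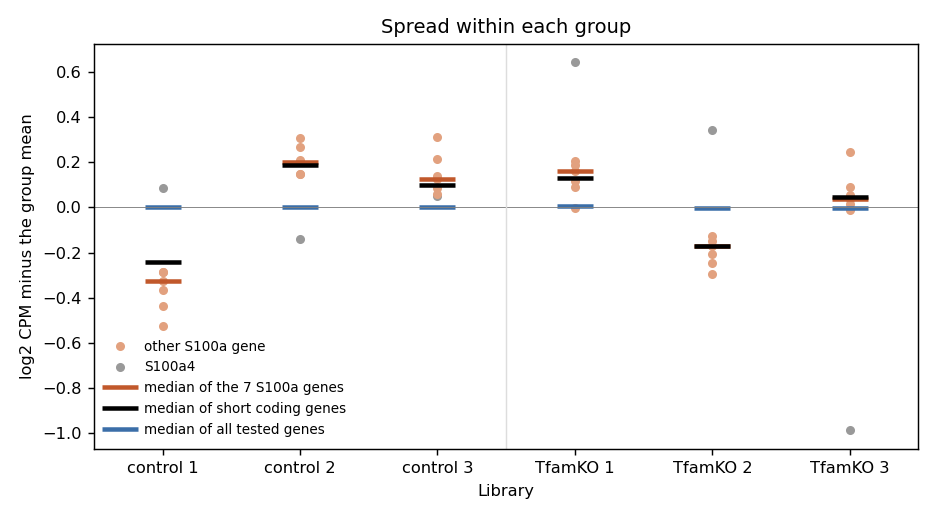
Deviation of log2 CPM from the mean of the group in each library; pale orange points are 6 S100a genes, grey points S100a4, and the bars are medians of the 7 S100a genes (orange), of 169 short coding genes (black) and of all tested genes (blue). The medians of the S100a genes and of the short genes lie close together in all 6 libraries, lowest in control 1 (-0.33 and -0.24).

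On mouse chromosome 3, S100a1, S100a13, S100a4, S100a6 and S100a8 follow one another in the order of the annotation with other S100 genes between them, and S100a11 and S100a10, neighbours among coding genes, lie further along. Genes around them moved in both directions. Of the 10 tested genes before the cluster 2 were lower and 4 higher, and of the 10 after it 1 was lower and 4 were higher, with medians of 0.12 and 0.19, beside 22.9% lower and 21.3% higher over all tested genes. After the cluster only Them4 kept its call in every other fit: Riiad1 (-0.55), Mrpl9 (0.24), Tdrkh (0.24) and the pseudogene Rpl31-ps11 (1.20) each lost it in some, Riiad1 and Tdrkh with both length and GC offsets. Next to S100a1 lies Chtop, an mRNA export factor, which rose (0.38), and after S100a10 the next tested gene was Them4, a thioesterase, which rose too (1.11). Snapin, a vesicle fusion protein, fell by 0.65 on the log2 scale. Between S100a8 and S100a11 the only tested genes were the pseudogenes Gm9774 and Gm4202, and neither passed the test. Of the 634 other tested genes of the chromosome 22.1% were lower, near the 22.9% of all tested genes, with a median of 0.02.

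**Figure D4:**
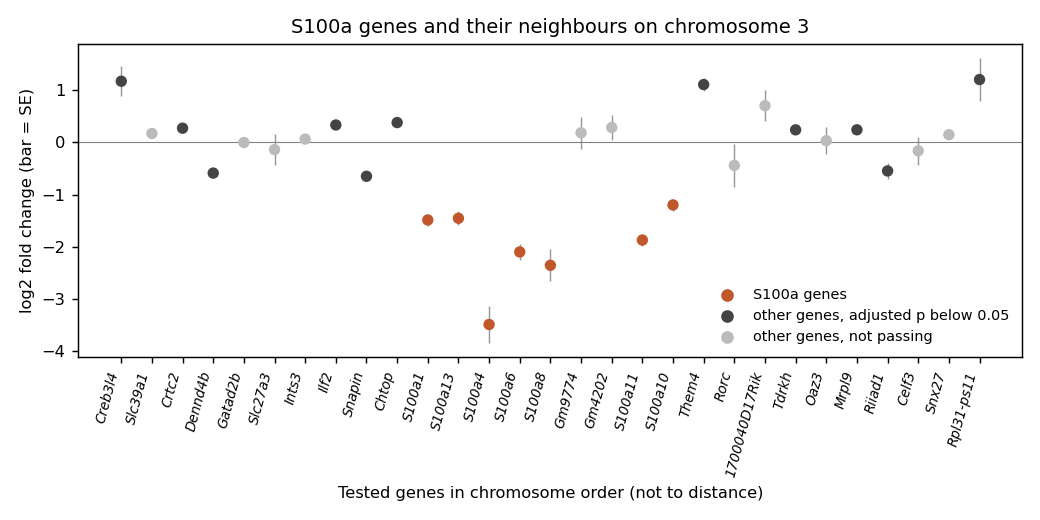
Log2 fold change (TfamKO minus control, bars are standard errors) of the 7 S100a genes (orange) and tested genes around and between them, in the order of chromosome 3 and not to distance; dark points passed the test and pale points did not. The 7 S100a genes lie at -1.20 or below and the 20 flanking genes between -0.65 and 1.20. The S100a genes were picked for their direction and the flanking genes were not.

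The other S100 genes were too rare for the filter. S100a5, which lies between S100a4 and S100a6, had 8, 4 and 4 counts in controls and 0 in each library labelled TfamKO. Against a floor of 3 counts over that group it was at least 4.60-fold lower, and in a fit without the filter, where 16.8% of all genes were lower, its adjusted p was 0.0195 (edgeR). S100a7a, next to S100a8, had 9, 7 and 19 counts in controls and 2, 4 and 1 in the libraries labelled TfamKO, a log2 fold change of -2.30 in that fit (adjusted p = 0.0384, edgeR). S100a3 (9, 4 and 8 counts against 6, 7 and 1), S100a14 (1, 3 and 2 against 0, 2 and 6) and S100b, the family member of astrocytes (12, 7 and 4 against 9, 9 and 2), did not pass it, with adjusted p-values of 0.68, 0.806 and 0.947 (edgeR). S100pbp, a protein that binds S100P and is no member of the family, had a log2 fold change of -0.05 (adjusted p = 0.732, edgeR).

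Proteins that S100 proteins bind were next. Of 36 tested genes of this list 15 were lower (41.7%, beside 22.9% of all) and 6 higher (16.7%, beside 21.3%), with a median log2 fold change of -0.05, and 11 of the 15 and 3 of the 6 passed in the same direction in every other fit. Anxa2, the annexin that S100a10 joins, had 818, 976 and 947 CPM in controls and 334, 283 and 325 CPM in the libraries labelled TfamKO. It fell by 1.54 on the log2 scale (adjusted p = 7.53e-10, edgeR), with the lowest control far above the highest library labelled TfamKO. Per transcript length the ratio of Anxa2 to S100a10 was 1.89, 1.67 and 1.63 in controls and 1.27, 1.42 and 1.39 in the libraries labelled TfamKO, groups that do not overlap. Anxa1, the partner of S100a11, had 207, 236 and 227 CPM in controls and 137, 132 and 136 CPM in the libraries labelled TfamKO, a fall by 0.72 (adjusted p = 5.03e-07, edgeR). Its ratio to S100a11 was 0.489, 0.369 and 0.410 in controls and 0.833, 1.00 and 0.935 in the libraries labelled TfamKO, so for this pair the ratio was higher in the libraries labelled TfamKO and for the other it was lower. Both ratios use the median length of the annotated transcripts, so their size, though not their direction of change, depends on that measure. The part of transcript length in these shifts was not tested.

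Ahnak, a giant scaffold at the membrane that the S100a10 and Anxa2 complex recruits, fell by 1.12, and Plaur, the urokinase receptor, fell by 0.95. Vim, the intermediate filament vimentin, fell by 1.22 and Aldoc, an aldolase of glycolysis, by 1.40. Plat, the plasminogen activator that the complex binds, was at 1.89 ± 0.17 CPM in controls and 0.675 ± 0.458 CPM in the libraries labelled TfamKO (-1.43, adjusted p = 0.0122, edgeR; 0.0616 without TfamKO 2). Cybb, the catalytic subunit of the phagocyte NADPH oxidase to which S100a8 can deliver lipid, rose by 1.15. Myh9, the myosin heavy chain bound by S100a4, had a log2 fold change of -0.23 and Cacybp, the partner of S100a6, one of 0.29; they passed the test in 9 and 11 of 14 other fits, respectively.

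Receptors that S100 proteins act on and the relay to NF-kB moved in both directions. Of 31 tested genes 9 were lower (29%) and 11 higher (35.5%), beside 22.9% and 21.3% of all, with a median of 0.01, and 7 and 9 of these passed in the same direction in every other fit. Tlr4, a receptor for S100a8, had a log2 fold change of -0.03 (adjusted p = 0.839, edgeR), and Ager, which encodes the receptor RAGE, had 4 to 15 counts per library and was not tested. Cd14, the partner of Tlr4 in ligand binding, rose by 1.13, and Bsg and Mcam, surface proteins that bind S100 proteins, fell by 1.05 and 1.32. Traf6, the ubiquitin ligase of the relay, fell by 1.62 (43.5 ± 1.7 and 14.1 ± 2.5 CPM). Nfkbia, the inhibitor that NF-kB itself induces, rose by 1.91 (89.3 ± 3.7 and 334 ± 25 CPM) and Nfkb1 by 1.28.

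Other EF-hand proteins, which share the calcium loop with the S100 family, were lower in 23 of 57 tested genes (40.4%) and higher in 8 (14%), with a median of -0.21, and 17 and 3 of these passed in the same direction in every other fit. Capn1, the catalytic subunit of a calcium-dependent protease, fell by 1.54 and Myl6, a light chain of myosin with a short transcript, by 1.08. Ehd2, a membrane remodelling ATPase of caveolae, fell by 0.89 and its relative Ehd1, of the endosome, rose by 1.46. Calcium channels, pumps and stores were lower in 10 of 40 tested genes (25%) and higher in 8 (20%), beside 22.9% and 21.3% of all genes, with a median of -0.01. Of these, 5 and 5 passed in the same direction in every other fit, and without control 3 only 5 genes were lower. The chaperones Hspa5 and Hsp90b1 of the endoplasmic reticulum rose by 0.87 and 0.75. Letm1 and Mcu, transporters of the inner mitochondrial membrane, rose by 0.86 and 0.68. The 5 that passed as lower in every other fit were Itpr3 (-0.47), Orai1 (-0.42), Calr (-0.39), Tmco1 (-0.38) and Trpv2 (-0.34). Calcium levels were not measured.

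**Figure D5:**
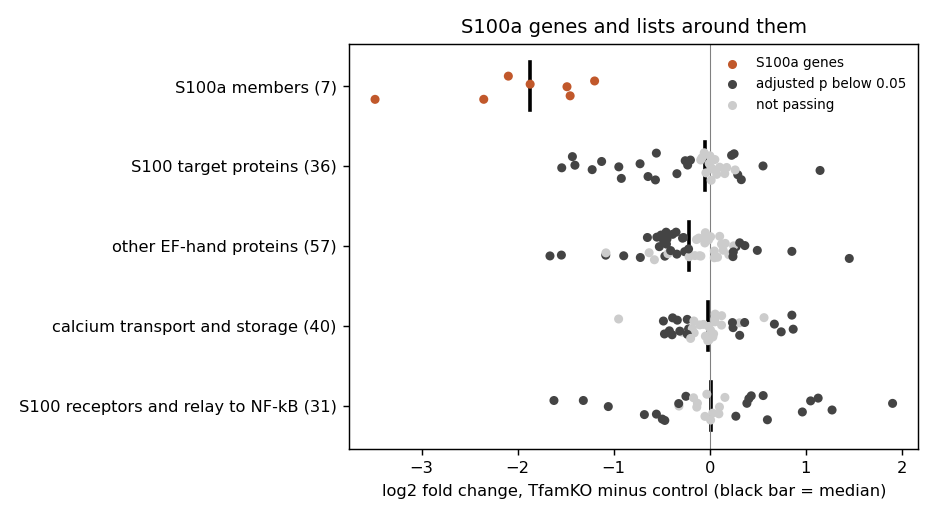
Log2 fold change (TfamKO minus control) of the 7 S100a genes and of the tested genes in 4 lists around them, with their numbers in brackets; dark points passed the test, pale points did not, and black bars are medians. The S100a genes were picked for their direction, and the medians of the 4 lists lie between -0.21 and 0.01.

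Among 9996 genes with at least 5 CPM, those whose 6 centred log2 CPM values lay nearest to the mean profile of the 7 genes were Apoe, the lipid carrier (Euclidean distance 0.186), Isoc2b (0.208), Tnfsf13b, the B cell cytokine BAFF (0.257), Ephx1, an epoxide hydrolase (0.260), and Zbtb32, a transcription factor (0.281). Apoe had 296.5, 376 and 369 CPM in controls and 103, 89.1 and 92.6 CPM in the libraries labelled TfamKO. As in most S100a genes, control 1 was its lowest control and TfamKO 2 the lowest of the other group. That likeness follows in part from the choice of Apoe by these same 6 values. The median of the short coding genes was lowest in the same libraries of each group.

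Markers of other cells were few. Of 12 fibroblast markers 4 were in the table. Their summed level was 3.41 to 4.17 CPM in controls and 1.23 to 2.23 CPM in the libraries labelled TfamKO. Of the 3 tested, 2 were lower (66.7%, beside 22.9% of all tested genes), Pdgfra by 2.29 and Pdgfrb by 1.98. Acta2 did not pass the test (0.38), and Pdgfrb passed it in 11 of 13 other fits. Pdgfra had 5, 10 and 7 counts and Pdgfrb 3, 1 and 9 in TfamKO 1 to 3, so both came among the tested genes through the controls. The 8 of 14 astrocyte and oligodendrocyte markers in the table summed to 25.3 to 27.0 and 13.2 to 15.97 CPM, most of it from Mbp, the myelin basic protein, which fell by 1.20. Epithelial markers came down to Cdh1, at 0.566 to 0.640 and 0.558 to 0.862 CPM. Their part in the S100a values was not tested.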

How the data were processed

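RNA-seq libraries of BV2 cells, 3 control and 3 labelled TfamKO, were grouped by their titles. The authors deposited raw counts of reads for 17872 genes with at least 6 counts over the libraries; reads were handled on GRCm39 with featureCounts 2.0.0, SAMtools 1.9, HISAT2 2.1.0 and bcl2fastq 2.17, per the submitters' processing notes. Per the labels' protocols, a NEBNext Ultra kit was used, which does not mark strand. A second deposited table of log2 values was not used.

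The quasi-likelihood test of edgeR 4.0.16 (R 4.3.3; TMM, Benjamini-Hochberg) ran on the 13403 genes that filterByExpr kept, with 4469 left out, and calls have an adjusted p below 0.05. Each SE is the log2 fold change divided by the root of F. The step was tested on simulated data. Lengths, gene order and copies (BLAST 2.17.0, at least 90% identity) came from GENCODE M21, whose build (GRCm38) is not the authors'. Promoters are RefSeq's, on GRCm38.p6.

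The members and the gene lists were chosen with earlier results of these data known. Named genes were the 7 members, the other S100 genes in the table, per list up to 4 called genes of largest change with 1 CPM or more on average, the most abundant marker of a list, the nearest genes by position and by profile, and Tfam; other named genes (partners of the members, other markers, Gm7665, the lowest short genes) were chosen after their values were seen. Alternatives were DESeq2 1.42.0, median-ratio factors, library totals, a filter of 5 CPM in 3 libraries or none, offsets for length and GC content, a replicate block and each library left out.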

Additional observations from a re-analysis of the deposited data

How the results depend on the processing

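The 7 members kept negative log2 fold changes in all 96 values from other fits, and 3 of these moved by more than the SD between libraries. Their median ran from -2.00 to -1.72 with a library left out and was -1.49 with a filter of 5 CPM in 3 libraries (5 members left, without S100a4 and S100a8) and -1.59 with offsets for the longest coding length and GC content. The count of called genes was 4847 to 5743 with a library left out and 5255 with the replicate block, against 5926, and the block ended no call among the genes named by the rule; Myh9, named outside it, lost its call there. Whether same-numbered libraries belong together is not stated. Correlations of deviations between same-numbered libraries were -0.15, -0.16 and 0.05. Deviations around means of only 3 libraries cannot settle whether the numbers pair them. For the genes named by the rule, called or not, 595 results from other fits held 577 on the same side of the threshold, 17 lost calls (Cd68, Cx3cr1, Mrpl9, Plat, Riiad1, Rpl31-ps11 and Tdrkh) and 1 gained, Tfam with library totals (0.24, adjusted p = 0.0403, edgeR). Of the genes named outside the rule, Myh9 was called in 9 and Cacybp in 11 of 14 other fits, and Pdgfrb in 11 of 13. Without the filter, 2 of the other S100 genes were lower and not 0.

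With library totals only, the medians were 0.0538 for the target proteins, 0.0865 for calcium transport, -0.12 for other EF-hand proteins and 0.0527 for the short genes by median length, and 6 calcium transport genes were lower and not 10. The offsets by median length gave medians of 0.0461 for calcium transport and 0.0429 for the short genes, and those by longest coding length 0.0158 and 0.0429. Without the filter the median of other EF-hand proteins was -0.14. With a library left out, 3 to 6 target genes were higher (3 without TfamKO 3), 5 to 9 calcium transport genes were higher (5 without TfamKO 3), 5 to 9 were lower (5 without control 3, 6 without TfamKO 3), and their median was -0.0515 to 0.0023. Below 1000 nucleotides by median length, 1300 of 5159 genes were lower and 957 higher. By longest coding transcript 90 were lower and 6 higher, with a median of -0.39. The cause of these shifts was not tested. S100a4 and S100a8 rest on few counts, which limits the precision of their values.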
